A study of Homo sapiens with 6 samples.

Results

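The BCL2 family genes BMF, BCL2L11, BBC3, PMAIP1, BID, BAD, BIK, BCL2, BCL2L1 and MCL1 were followed by symbol in a table of read counts for 29744 genes. All 10 were present, and all 10 were among the 14192 genes that passed the filter on low counts and were tested. The counts came from 6 libraries of messenger RNA of MDA-MB-231, an established human line from a triple-negative breast carcinoma, grown for 2 days in medium with 10% fetal bovine serum. The control cells were wild type for PARP1 and carried a control shRNA, a short hairpin RNA meant to hit no gene. The shEZH2 line had a knockout (KO) of PARP1 and an shRNA against EZH2, and the shSUZ12 line had the PARP1 KO and an shRNA against SUZ12, with 2 libraries per group. Both targets belong to PRC2, the Polycomb complex that methylates histone H3 at lysine 27, EZH2 as its enzyme and SUZ12 as a core partner. None of the groups analysed carried the KO alone or an shRNA against a PRC2 subunit alone, so the parts of PARP1 and of each PRC2 subunit cannot be told apart. The labels do not say how the KO line was derived or that replicates were grown as separate cultures. The p-values thus rest on the spread of these libraries alone, and that spread may be technical.

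BCL2 family proteins control the intrinsic route to apoptosis at the outer mitochondrial membrane. Anti-apoptotic members such as BCL2, BCL-XL (from BCL2L1) and MCL1 hold the pore-forming effectors BAX and BAK in check. BH3-only proteins carry a short helix called BH3 that binds a groove of the anti-apoptotic members, and some also activate BAX and BAK directly. BMF is a BH3-only protein that binds the dynein light chain DYNLL2 and is linked to anoikis, the death of epithelial cells that lose their attachment.

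BMF lies on the minus strand of chromosome 15 (40087890 to 40108892, GRCh38). RefSeq lists 2 start windows for it, each of 300 bases around a start, and they are shown because a count per gene sums the transcripts from both. The window of BCL2L11 on the plus strand of chromosome 2, the gene of the closely related protein BIM, is shown beside them. Sequences are from RefSeq (GRCh38.p14), 5′ to 3′ on the strand of the gene. Capitals mark the GC box (GGGCGG or its reverse complement CCGCCC) and the FOXO core (TGTTTAC or its reverse complement GTAAACA).
BMF upstream start, chr15:40108830-40109129, minus strand: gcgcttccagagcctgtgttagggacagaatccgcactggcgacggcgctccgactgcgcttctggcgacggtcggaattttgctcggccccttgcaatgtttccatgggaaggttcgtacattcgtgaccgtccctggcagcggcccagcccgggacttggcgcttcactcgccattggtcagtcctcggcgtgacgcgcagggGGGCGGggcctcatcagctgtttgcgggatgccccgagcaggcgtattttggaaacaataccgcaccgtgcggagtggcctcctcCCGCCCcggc
BMF downstream start, chr15:40106917-40107216, minus strand: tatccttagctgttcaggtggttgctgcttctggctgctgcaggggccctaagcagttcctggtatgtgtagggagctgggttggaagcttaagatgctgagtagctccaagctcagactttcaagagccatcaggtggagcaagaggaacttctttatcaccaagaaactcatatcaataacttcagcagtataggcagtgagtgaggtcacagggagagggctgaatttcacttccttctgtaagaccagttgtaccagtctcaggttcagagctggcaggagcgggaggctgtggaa
BCL2L11 start, chr2:111120664-111120963, plus strand: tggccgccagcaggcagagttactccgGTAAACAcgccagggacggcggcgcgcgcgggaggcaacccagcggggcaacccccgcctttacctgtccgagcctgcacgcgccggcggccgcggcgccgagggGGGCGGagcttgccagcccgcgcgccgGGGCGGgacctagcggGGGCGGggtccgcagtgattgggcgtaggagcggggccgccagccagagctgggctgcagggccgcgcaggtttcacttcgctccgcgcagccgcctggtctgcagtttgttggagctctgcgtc

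The BMF windows differed in base composition. The upstream window held 31 CG dinucleotides and 2 GC boxes, and the downstream window held 1 CG dinucleotide and 0 GC boxes. The median over 34796 RefSeq windows of that length was 14 CG dinucleotides, and 44.9% of the windows held a GC box. The BCL2L11 window held 39 CG dinucleotides, 3 GC boxes and 1 FOXO core, a motif in 3.42% of all windows. Of the 15 windows found for 8 of the 10 genes (all but MCL1 and BIK), that of BCL2L11 alone held the FOXO core. The E-box CACGTG stood in windows of BBC3 and BID (7.20% of all windows) and the cyclic AMP element TGACGTCA in 0 of the 15 (1.84% of all windows). A match of letters is a description of the window and not evidence of binding.

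Total gene counts ranged from 20135270 to 22782742 per library. Levels are given in CPM, that is, counts per library size after TMM scaling (trimmed mean of M values). The targeted transcripts PARP1 and EZH2 fell in the lines labelled for them. PARP1 was at 361 to 425 CPM (control) against 26.6 to 33.6 CPM (both KO lines), and EZH2 at 188 to 199 CPM (control) against 53.1 and 63.5 CPM (shEZH2), with edgeR adjusted p = 0.000599 and 0.000842 for PARP1 in the shEZH2 and shSUZ12 lines and 0.00539 for EZH2. SUZ12 was at 134 and 133 CPM (control) against 76.1 and 70.3 CPM (shSUZ12), and its log2 difference of -0.87 ± 0.37 (SE) was not called (edgeR adjusted p = 0.377). The shEZH2 replicates stood apart, with 130 and 53.1 CPM of SUZ12, and 11% of tested genes stood over 2-fold apart in that pair in CPM + 0.5, where the share was 0.719% for the controls and 0.254% for the shSUZ12 pair. VIM, CD44, KRT8, KRT18 and EPCAM, the markers listed for the line, were detected in every library (summed level 4746 to 7021 CPM). Of the receptors listed as low or absent in the line, ESR1 was at 0 counts in all 6 and PGR at 0 to 8 counts. ERBB2, on the same list, was detected in every library, at 56.0 to 75.8 CPM. The 8 listed markers of blood, endothelial and fibroblast cells summed to 16.8 and 26.7 CPM (control), 23.3 and 30.1 CPM (shEZH2) and 26.3 and 30.9 CPM (shSUZ12), with CD3E at 0 in every library. One of the 8, PECAM1, an endothelial adhesion molecule, rose in the shEZH2 line by 1.54 on the log2 scale, and EPCAM fell there by 1.31 (edgeR adjusted p = 0.0475 and 0.0295). The shSUZ12 line lay on the same sides of control. PECAM1 was at 1.85 and 2.99 CPM (control) against 4.47 and 7.01 CPM (shSUZ12), and EPCAM at 16.4 and 14.2 CPM against 7.29 and 6.06 CPM. Every library of both lines was below both controls in CD44 and above them in VIM. The part of these markers in the results was not tested. In bulk RNA, fewer cells with a transcript and less of it per cell cannot be told apart.

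Levels per length, as CPM per kilobase of the longest annotated transcript, spanned nearly 3 orders of magnitude across the family. In control BCL2L1 stood highest at 300.2 and 286 CPM per kilobase, followed by MCL1 at 89.9 and 77.0. BAD came next at 46.1 and 47.4 CPM per kilobase, then BID at 18.3 and 16.0 and PMAIP1 at 14.0 and 12.9. BCL2L11 (2.85 and 3.17 CPM per kilobase) and BBC3 (2.16 and 2.87) overlapped. BCL2 followed at 1.68 and 1.43 CPM per kilobase. BMF (0.682 and 0.507) and BIK (0.425 and 0.598) were lowest and overlapped. The length of the transcripts actually made in these cells was not measured, so this order holds for the annotated lengths.

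**Figure D1:**
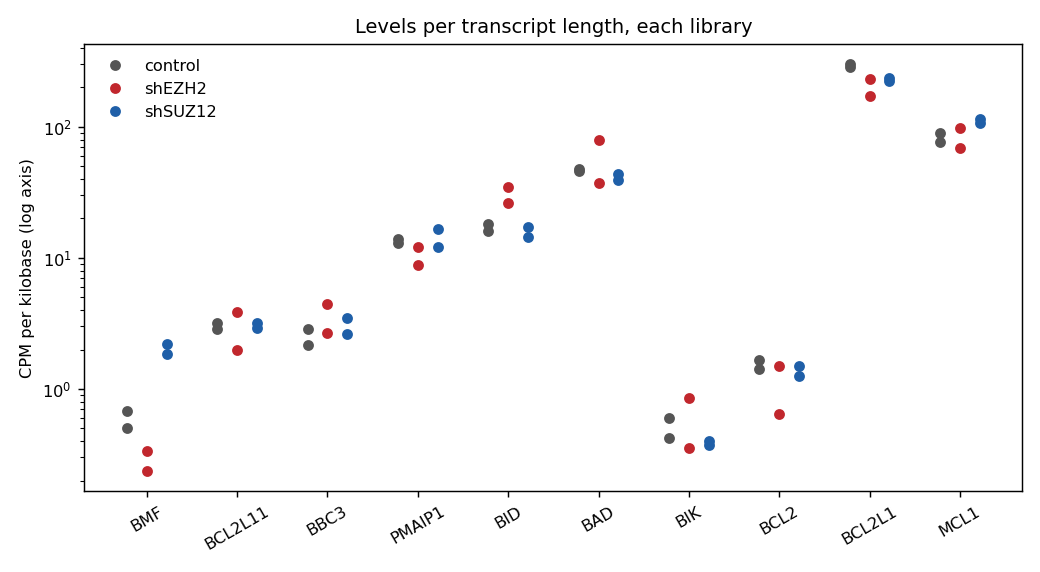
Level per transcript length of the 10 BCL2 family genes in each library, as CPM per kilobase of the longest annotated transcript on a log axis, with 1 point per library coloured by group. BCL2L1 is highest in every group, at 300.2 and 286 CPM per kilobase in control, and the shSUZ12 points of BMF stand above its control and shEZH2 points.

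The order of the low genes differed between groups. In the shEZH2 line BMF was the lowest of the 10, at 0.237 and 0.338 CPM per kilobase, below BIK at 0.354 and 0.858. In the shSUZ12 line BMF was at 2.22 and 1.86 CPM per kilobase, above BCL2 (1.50 and 1.27) and BIK (0.375 and 0.400) without overlap, and below BCL2L11 (3.17 and 2.90). MCL1 and BAD overlapped in the shEZH2 line (68.7 to 97.9 and 37.4 to 79.9 CPM per kilobase), and BID and PMAIP1 overlapped in the shSUZ12 line (14.5 to 17.1 and 12.2 to 16.6). Of the summed level per kilobase of the 10 genes, the 3 anti-apoptotic genes held 82.3% and 81.3% (control), 76.6% and 69.6% (shEZH2) and 81.5% and 80.5% (shSUZ12). BMF held 0.143% and 0.113%, 0.0667% and 0.0785%, and 0.514% and 0.450% in the same order.

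The shSUZ12 line was compared with control to find which of these genes differ when PARP1 is knocked out and SUZ12 is targeted. BMF rose and was the only 1 of the 10 genes that passed the test. It had 71 and 50 counts in control, or 3.20 and 2.38 CPM, and 233 and 183 counts in the shSUZ12 line, or 10.4 and 8.73 CPM. Both shSUZ12 libraries lay above both controls, and the counting intervals (95%, exact Poisson, counting error only) reached 4.03 CPM in control and started at 7.51 CPM in the shSUZ12 line. The rise was 1.78 ± 0.30 on the log2 scale, or 3.43-fold (n = 2 per group; edgeR's quasi-likelihood test, Benjamini-Hochberg adjusted p = 0.0355). The 95% interval ran from 1.08 to 2.48. The comparison called 1.61% of all tested genes, and 0.719% of all tested genes were called higher, beside 1 of 10 BCL2 family genes. At an unadjusted p under 0.05 BMF was again alone among the 10, where 13.1% of all tested genes stood.

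The call for BMF depended on the libraries in the fit, while its direction did not. It was lost once a control or shSUZ12 library was left out, in fits that called far fewer genes of any kind. Without control replicate 1 or 2 the log2 difference was 2.03 or 1.57 and edgeR's adjusted p was 0.273 or 0.302. Without shSUZ12 replicate 1 or 2 it was 1.64 or 1.90, with edgeR adjusted p = 0.374 or 0.250. Without shEZH2 replicate 1 or 2 BMF kept its call, in fits that called far more genes of any kind. Where 1 library remained in a group, here and below, its spread was taken from the other groups.

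**Figure D2:**
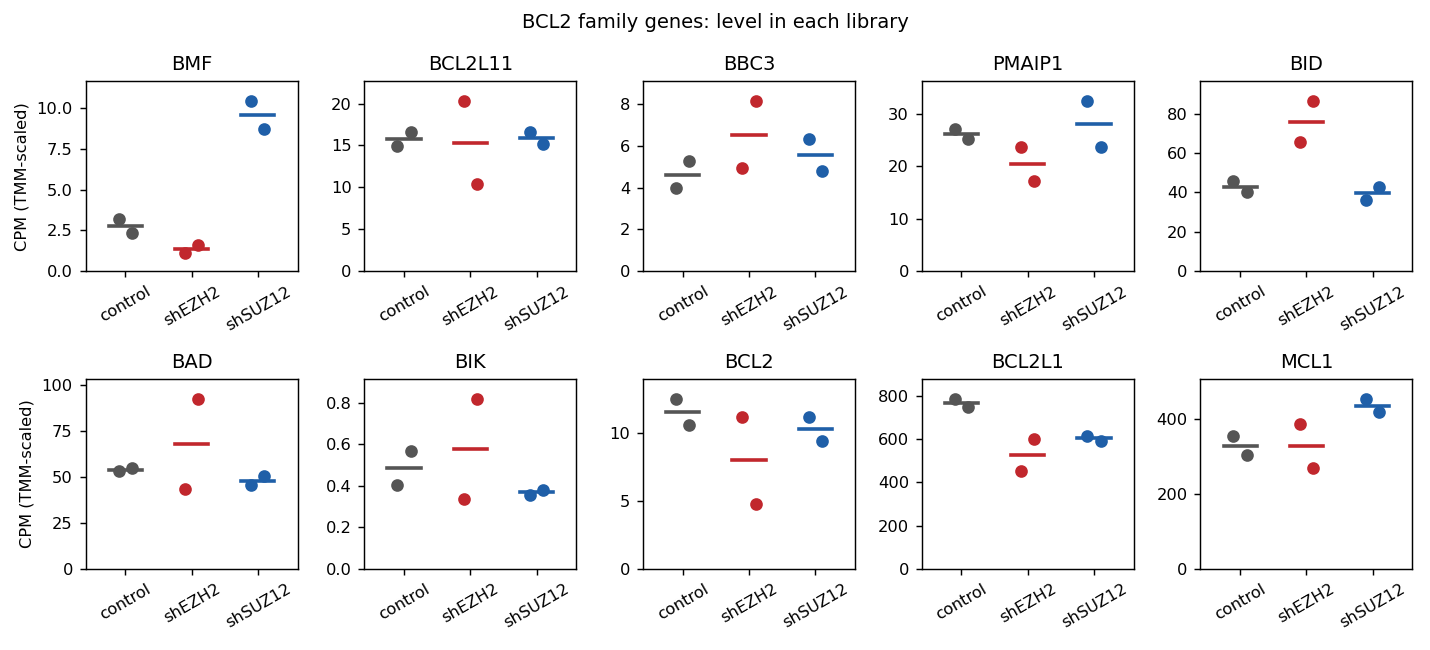
Level of each BCL2 family gene by group, in CPM scaled by TMM, with 1 point per library and a bar at the group mean (n = 2). The BMF points are 3.20 and 2.38 CPM (control), 1.11 and 1.58 CPM (shEZH2) and 10.4 and 8.73 CPM (shSUZ12), with no overlap between groups.

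None of the other BH3-only genes passed the test in the shSUZ12 line. BCL2L11 (chromosome 2, 111119378 to 111168447, plus strand), whose protein BIM binds every major anti-apoptotic member, was at 14.9 and 16.6 CPM (control) against 16.6 and 15.2 CPM (shSUZ12), and the groups overlapped (log2 difference 0.01, 95% interval -0.71 to 0.74). BBC3, on chromosome 19 (47220822 to 47232766), encodes PUMA, a strong binder of all anti-apoptotic members and a p53 target. It was at 3.96 and 5.27 CPM (control) against 6.35 and 4.82 CPM (shSUZ12), which overlapped, with a log2 difference of 0.27 (-0.50 to 1.05). PMAIP1, on chromosome 18 (59899948 to 59904306), encodes NOXA, which binds MCL1. Its levels were 27.2 and 25.2 CPM (control) against 32.4 and 23.8 CPM (shSUZ12), again overlapping, with a log2 difference of 0.10 (-0.47 to 0.67).

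BID encodes a protein that caspase-8 cuts to carry death receptor signals to mitochondria. It stood at 45.7 and 40.0 CPM (control) against 36.3 and 42.7 CPM (shSUZ12), with overlap and a log2 difference of -0.12 (95% interval -0.61 to 0.38). BAD (chromosome 11, 64269830 to 64284704, minus strand), held inactive by phosphorylation through survival kinases, was at 53.4 and 54.9 CPM (control) against 45.7 and 50.5 CPM (shSUZ12). Its groups did not overlap, but the log2 difference of -0.17 had an interval of -0.93 to 0.59. BIK, on chromosome 22 (43110748 to 43129712, plus strand), encodes a BH3-only protein of the endoplasmic reticulum. It had 9 and 12 counts in control and 8 and 8 in the shSUZ12 line, and a difference was not detectable at this depth (95% interval of the log2 difference -1.76 to 0.98).

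Among the anti-apoptotic genes, BCL2L1 and MCL1 lay on opposite sides of control in the shSUZ12 line without passing the test. BCL2L1 (chromosome 20, 31664452 to 31723989, minus strand) was at 784 and 746 CPM (control) against 615 and 590 CPM (shSUZ12). MCL1 (chromosome 1, 150574551 to 150579738, minus strand), whose protein is short-lived, was at 353 and 303 CPM (control) against 452 and 418 CPM (shSUZ12). Neither gene overlapped between the groups. The log2 differences were -0.34 ± 0.19 and 0.41 ± 0.21 (edgeR adjusted p = 0.537 and 0.506 with Benjamini-Hochberg adjustment). Both passed in a fit of the 2 compared groups alone (edgeR adjusted p = 0.0207 for BCL2L1 and 0.00865 for MCL1), without shEZH2 replicate 1 (0.0157 and 0.00688) and without shEZH2 replicate 2 (0.0179 and 0.00642). By limma's voom with quality weights the adjusted p was 0.0242 and 0.0132. Each of those edgeR fits called 20.6 to 20.9% of all genes tested in it, and limma 20.8%. In edgeR the calls of BCL2L1 and MCL1 depended on which shEZH2 libraries entered the fit. The ratio of BCL2L1 to MCL1 counts within a library needs no scaling. It was 2.22 and 2.47 in control and 1.36 and 1.41 in the shSUZ12 line. In shEZH2 replicates 1 and 2 it was 1.17 and 2.23. BCL2 (chromosome 18, 63123346 to 63320128), the founding member of the family, was at 12.5 and 10.6 CPM (control) against 11.2 and 9.44 CPM (shSUZ12), with overlap and a log2 difference of -0.16 (95% interval -1.04 to 0.71). In all, 5 of the 10 genes did not overlap between these groups, as did 61.2% of all tested genes.

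**Figure D3:**
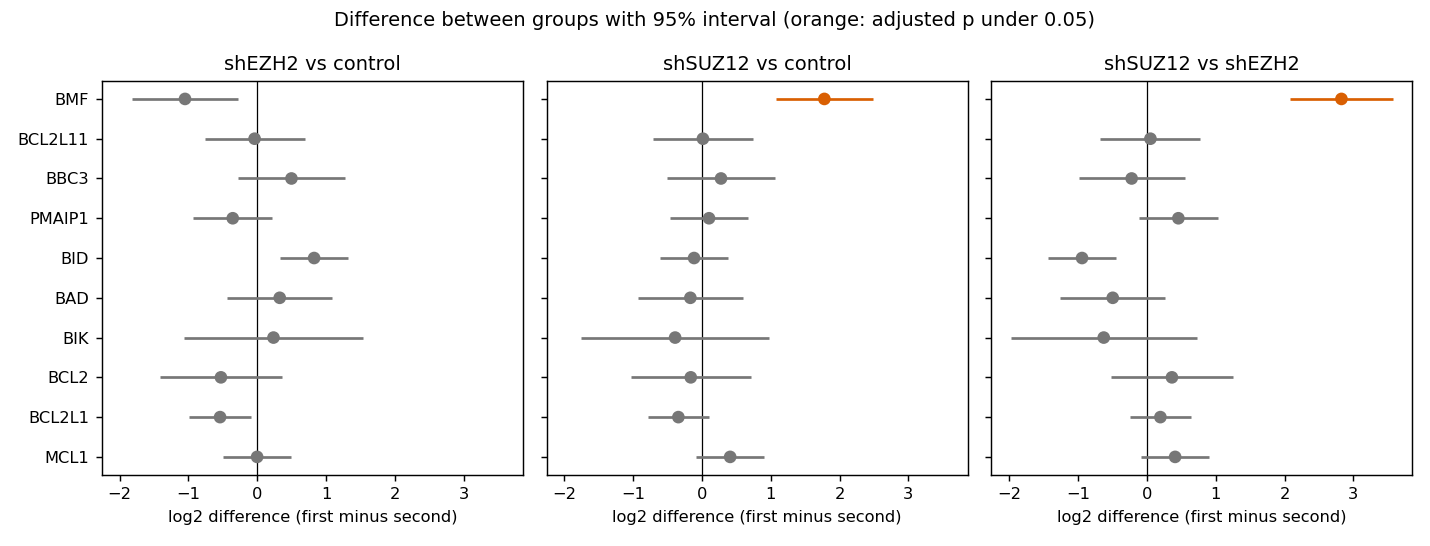
Log2 difference of each BCL2 family gene in the 3 comparisons, with 95% intervals from the edgeR fit and calls in orange (adjusted p under 0.05, n = 2 libraries per group). BMF is the only gene called, with differences of 1.78 against control and 2.83 against the shEZH2 line.

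The shEZH2 line was compared with control likewise. The edgeR test called 0 of the 10 genes there, and 6.74% of all tested genes. At an unadjusted p under 0.05 there were 3 of 10 genes, BMF, BID and BCL2L1, against 26.8% of all tested genes. DESeq2 called 1 of the 10, BID, and 13.9% of all tested genes. With limma's voom with quality weights it was 0 of the 10 and 5.07% of all tested genes. The groups did not overlap for 4 of the 10, BMF, PMAIP1, BID and BCL2L1, against 54.4% of all tested genes.

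BMF stood below control in the shEZH2 line. It had 23 and 31 counts, or 1.11 and 1.58 CPM, against 71 and 50 counts in control. Both libraries lay under both controls, but the counting intervals overlapped, with 2.25 CPM as the upper bound of shEZH2 replicate 2 and 1.76 CPM as the lower bound of control replicate 2. The log2 difference was -1.05 ± 0.33 (95% interval -1.82 to -0.28; edgeR adjusted p = 0.0947, Benjamini-Hochberg). Without shEZH2 replicate 2 it was -1.29 and passed, with the line resting on 1 library and many more genes of any kind called.

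BID (chromosome 22, 17734138 to 17774770, minus strand) was above control in the shEZH2 line, at 65.7 and 86.2 CPM against 45.7 and 40.0 CPM. The groups did not overlap. The log2 difference was 0.83 ± 0.21 (95% interval 0.33 to 1.32; edgeR adjusted p = 0.0601 with Benjamini-Hochberg adjustment). The call was made with no filter on low counts (edgeR adjusted p = 0.0466), by DESeq2 (adjusted p = 0.0121) and with the length trend described below removed (edgeR adjusted p = 0.0175). Those fits called 7.03%, 13.9% and 16.3% of all genes tested in them. BID was also called once shEZH2 replicate 1 or 2 was left out. The line then rested on 1 library, and many more genes of any kind were called than with all 6 libraries.

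BCL2L1 was below control in the shEZH2 line, at 450.1 and 602 CPM against 784 and 746 CPM, without overlap. The log2 difference was -0.54 ± 0.19 (95% interval -0.99 to -0.09; edgeR adjusted p = 0.126 with Benjamini-Hochberg adjustment). The call was made once shEZH2 replicate 1 or 2 was left out (log2 differences -0.35 and -0.73). The line then rested on 1 library, and many more genes of any kind were called than with all 6 libraries. BCL2L1 was also called with the length trend removed (edgeR adjusted p = 0.0153), in a fit that called 16.3% of all tested genes. PMAIP1 was at 23.6 and 17.3 CPM, under both controls, with a log2 difference of -0.36 (-0.93 to 0.21).

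The remaining genes differed between the shEZH2 replicates by as much as or more than from control. BAD was at 43.3 and 92.4 CPM in replicates 1 and 2, on either side of its control levels, and BCL2 was at 11.2 and 4.80 CPM. BCL2L11 was at 20.3 and 10.4 CPM, BBC3 at 4.92 and 8.13 CPM, MCL1 at 385 and 270 CPM and BIK at 7 and 16 counts. The log2 differences from control ran from -0.53 for BCL2 to 0.50 for BBC3, and every 95% interval included 0. Without shEZH2 replicate 1, where the line rests on replicate 2 alone, edgeR called 7 of the 10 genes and 53.6% of all genes tested in that fit, and without replicate 2 it called 3 of the 10 and 28.3% of all. BAD and BBC3 were then higher (0.77 and 0.81) and BCL2, BCL2L11 and PMAIP1 lower (-1.27, -0.61 and -0.61), with edgeR adjusted p from 1.53e-05 to 0.0128 over these 5 genes.

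The replicate difference followed transcript length. The short transcripts of BAD and BIK (1157 and 953 bases) were higher in shEZH2 replicate 2, by 1.09 and 0.65 on the log2(CPM + 0.5) scale. The long transcripts of BCL2L11 and BCL2 (5231 and 7461 bases) were lower there, with differences of -0.93 and -1.15. All tested genes showed the same order: 88.7% of 1536 genes under 1500 bases were higher in replicate 2, and 16.8% of 3600 genes over 5000 bases. BMF (4687 bases) and PMAIP1 (1948 bases) stood on the other side from most genes of their length, at 0.37 and -0.44. Once the dependence on length had been taken out library by library, the log2 differences from control were -0.11 for BAD, -0.23 for BIK and 0.15 for BCL2L11, each of the other sign than with the trend kept, and none passed the test. That of BMF was -0.84.

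**Figure D4:**
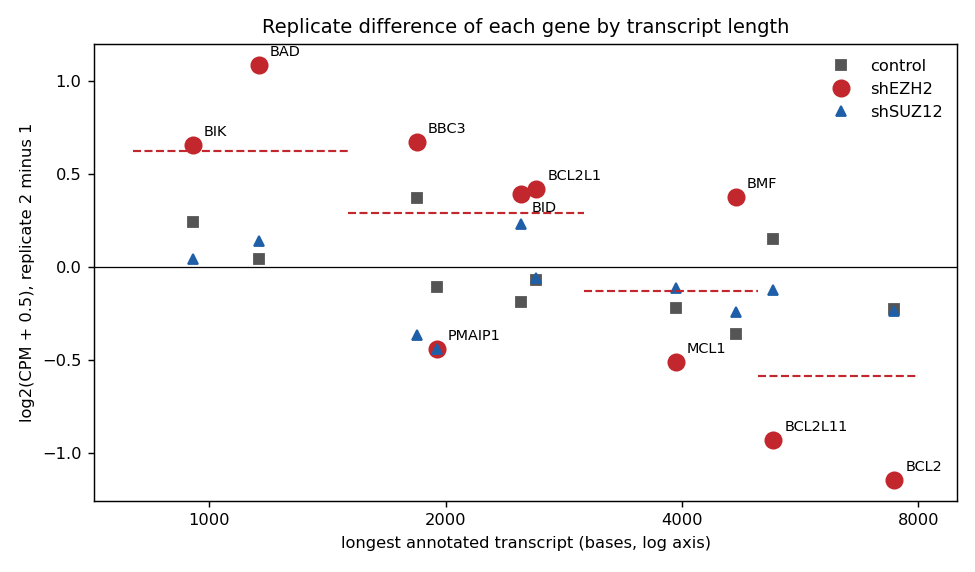
Difference between replicates 2 and 1 of each BCL2 family gene on the log2(CPM + 0.5) scale, against the length of the longest annotated transcript in bases on a log axis, with 1 symbol per group and names beside the shEZH2 points. Dashed lines give the median shEZH2 difference of all tested genes by length class, from 0.62 under 1500 bases to -0.58 over 5000 bases.

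The lines were then compared directly, which tests whether their differences from control differ. BMF was higher in the shSUZ12 line and again the only 1 of the 10 genes called, where 1.52% of all tested genes were called and 0.726% were called higher. BMF and BID had an unadjusted p under 0.05, as did 23.9% of all tested genes. Its levels of 10.4 and 8.73 CPM stood against 1.11 and 1.58 CPM, and neither the libraries nor their counting intervals overlapped (7.51 CPM or more against 2.25 CPM or less). The log2 difference was 2.83 ± 0.32, or 7.10-fold (95% interval 2.07 to 3.58; n = 2 per group; edgeR's quasi-likelihood test, Benjamini-Hochberg adjusted p = 0.0154). The number of BCL2L1 counts per BMF count was 406 and 380 (shEZH2) against 59.1 and 67.5 (shSUZ12), beside 245 and 314 (control).

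This call too depended on the libraries in the fit. It was lost once a control or shSUZ12 library was left out, in fits that called almost no genes of any kind. In a fit of the 2 lines alone BMF had an edgeR adjusted p of 0.0841, where 1 of 13949 tested genes was called. The log2 difference ran from 2.59 to 3.07 over the alternatives that left out a library. The comparisons share libraries, so the BMF difference between the lines is not independent of the rise against control.

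**Figure D5:**
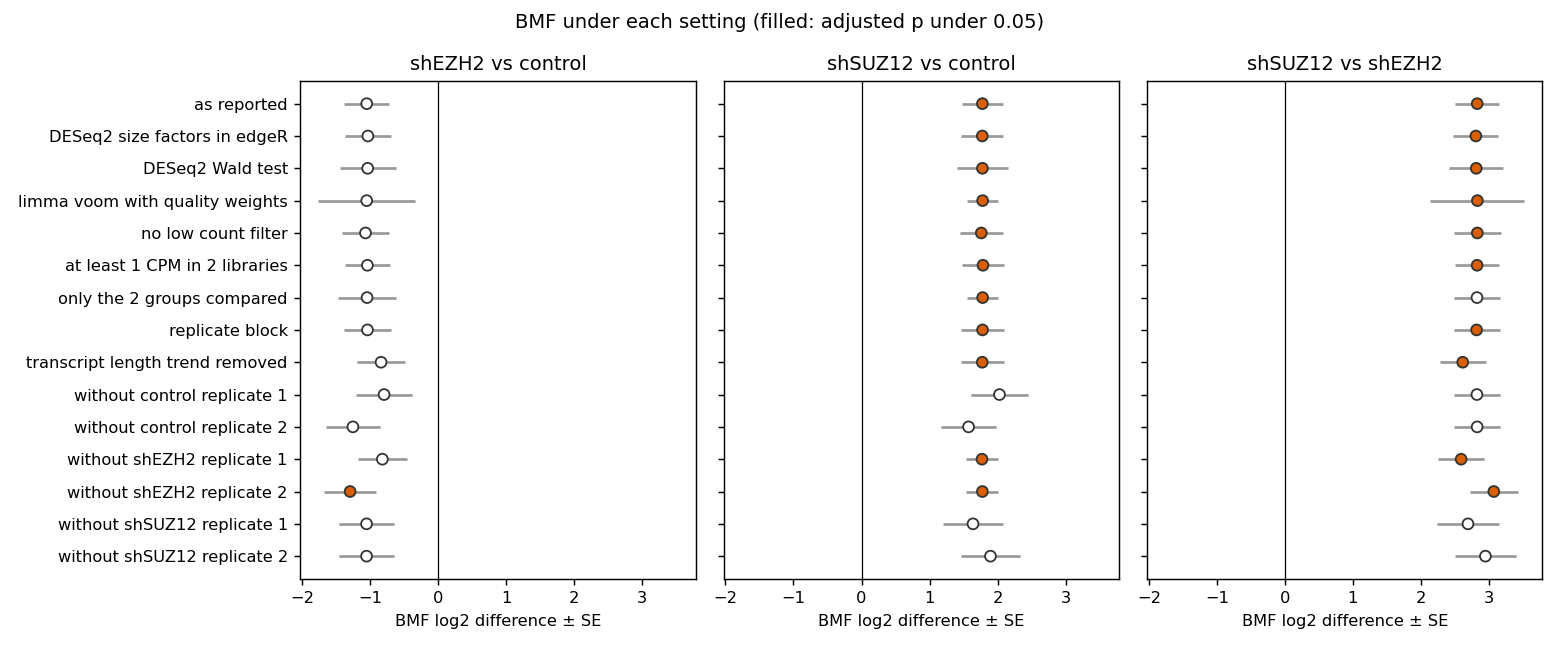
BMF log2 difference with its SE in each comparison, as reported and under 14 alternatives, with filled points where the adjusted p is under 0.05. The sign is the same in every row of each panel, and the shSUZ12 points lie between 1.57 and 2.03 against control.

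BID stood on the other side from BMF between the lines. It was at 65.7 and 86.2 CPM (shEZH2) against 36.3 and 42.7 CPM (shSUZ12), without overlap. The log2 difference was -0.94 ± 0.21 (95% interval -1.44 to -0.45) and did not pass (edgeR adjusted p = 0.0709 with Benjamini-Hochberg adjustment). It passed by DESeq2 (adjusted p = 0.00514), with no filter on low counts (edgeR adjusted p = 0.0379) and with the length trend removed (edgeR adjusted p = 0.0205). Those fits called 9.19%, 3.43% and 8.85% of all genes tested in them. BID also passed without shEZH2 replicate 1 or 2. The shEZH2 line then rested on 1 library, and many more genes of any kind were called than with all 6 libraries. MCL1 and PMAIP1 also did not overlap between the lines, with log2 differences of 0.41 (-0.09 to 0.91) and 0.46 (-0.11 to 1.03). For the other 6 genes the libraries of the lines overlapped, with log2 differences from -0.63 for BIK to 0.36 for BCL2. In all, 4 of 10 genes did not overlap, against 54.6% of all tested genes.

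Other genes of the intrinsic pathway were taken from lists of effectors, further BCL2 relatives, regulators, and apoptosome and caspase genes. Of 76 listed symbols 75 were in the counts and 69 were tested. In the shEZH2 line 5 of 69 were called lower and 0 higher, where 6.74% of all tested genes were called and 3.2% were called lower. Called or not, 41 of the 69 log2 differences lay below 0 and 28 above, beside 7257 and 6935 of all tested genes. Over the 69 genes the median log2 difference was -0.12 against -0.014 over all tested genes. In the shSUZ12 line 1 was called lower and 0 higher (median -0.047 against 0.0034), where 1.61% of all tested genes were called and 0.888% were called lower. Between the lines 1 was called higher in the shSUZ12 line and 0 lower (median 0.068 against 0.037), where 1.52% of all tested genes were called. With both directions pooled, these counts lay near the shares of all tested genes. In the shEZH2 line all 5 called genes were lower, where 454 of all tested genes were called lower and 503 higher. Whether that split departs from the one over all tested genes was not tested.

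BIRC2, an inhibitor of apoptosis protein that ubiquitinates RIPK1, fell in both lines. It was at 165 and 148 CPM (control), 68.9 and 58.9 CPM (shEZH2) and 71.5 and 76.5 CPM (shSUZ12), with both lines under both controls. The log2 differences were -1.29 ± 0.18 and -1.08 ± 0.18 (edgeR adjusted p = 0.0118 and 0.0342 with Benjamini-Hochberg adjustment), from comparisons that share the controls. Without control replicate 1 or 2 edgeR's adjusted p was 0.166 or 0.133 in the shEZH2 line and 0.432 or 0.246 in the shSUZ12 line. In the shEZH2 line it was 0.0492 and 0.0512 without shSUZ12 replicate 1 and 2. In the shSUZ12 line it was 0.455 and 0.394 in the same order.

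BNIP3L, a mitophagy receptor with a BH3-like region, was at 73.6 and 86.9 CPM (control), 39.2 and 39.4 CPM (shEZH2) and 104 and 77.7 CPM (shSUZ12). Against control it fell by 1.03 ± 0.21 (log2) in the shEZH2 line, and between the lines shSUZ12 stood higher by 1.21 ± 0.21 (edgeR, Benjamini-Hochberg adjusted p = 0.0329 and 0.0434). Without control replicate 1 or 2 these edgeR values were 0.199 or 0.282 and 0.153 or 0.149. Without shSUZ12 replicate 1 or 2 they were 0.0905 or 0.0907 and 0.522 or 0.232. In limma's voom with quality weights they were 0.0820 and 0.0683, and with edgeR on the 2 compared groups alone 0.0913 and 0.153.

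CASP2, which encodes caspase-2, one of the proteases that can cut BID, had 79.6 and 83.5 CPM (control) against 39.9 and 25.5 CPM (shEZH2): it fell by 1.32 ± 0.24. BOK, a BAX relative, had 41.3 and 35.4 CPM against 13.3 and 21.4 CPM: it fell by 1.15 ± 0.26. MYC, a growth regulator that can sensitise cells to apoptosis, had 122 and 118 CPM against 45.6 and 65.9 CPM: it fell by 1.11 ± 0.22. For these 3 genes edgeR's adjusted p was 0.0255, 0.0440 and 0.0324 in turn with Benjamini-Hochberg adjustment. Each lost its call without control replicate 1 (0.199, 0.288 and 0.234), control replicate 2 (0.224, 0.238 and 0.231), shSUZ12 replicate 1 (0.0782, 0.118 and 0.0960) or shSUZ12 replicate 2 (edgeR adjusted p = 0.0790, 0.120 and 0.0974), and in a fit of the 2 compared groups alone (0.0794, 0.123 and 0.0973).

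The effectors BAX and BAK1 were not called in any comparison. BAX was at 108 and 107 CPM (control), 93.6 and 150 CPM (shEZH2) and 89.9 and 98.0 CPM (shSUZ12). BAK1 was below control in every library of both lines. It was at 35.7 and 34.8 CPM (control), 24.4 and 26.0 CPM (shEZH2) and 28.2 and 31.1 CPM (shSUZ12). Of the further anti-apoptotic relatives, BCL2L2 alone was tested, at 48.0 and 46.6 CPM (control), 32.3 and 28.8 CPM (shEZH2) and 40.5 and 39.6 CPM (shSUZ12). BCL2L10 was at 0 counts in every library. DYNLL1, a dynein light chain and per length the most abundant gene among the 19 tested regulators of BMF and BCL2L11, was at 262 and 259 CPM (control), 233 and 376 CPM (shEZH2) and 219 and 199 CPM (shSUZ12). None of those 19 passed edgeR's test in any comparison. At an unadjusted p under 0.05 there were 5 of 19 in the shEZH2 line, 2 in the shSUZ12 line and 1 between the lines, where the shares of all tested genes were 26.8%, 13.1% and 23.9%.

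The genes whose levels followed BMF most closely were found by Pearson's r of log2(CPM + 1) over the 6 libraries, among 4232 genes that ranged over at least 1 on that scale. Symbols of uncharacterised loci and of antisense, long intergenic and small RNA genes had been left out of the 4232. The closest were ADAMTS6, a matrix protease (r = 0.995), MMP14, a membrane-bound matrix protease (0.986), EFCAB5 (0.984), the large cadherin FAT3 (0.981) and TRIM55 (0.978). ADAMTS6 was at 3.20 and 2.19 CPM (control), 0.579 and 0.818 CPM (shEZH2) and 14.0 and 9.54 CPM (shSUZ12). TRIM55 was at very low levels, with 0.495 and 0.380 CPM (control), 0.145 and 0.256 CPM (shEZH2) and 1.92 and 2.29 CPM (shSUZ12). The most opposed were ST14, the protease matriptase (-0.995), FAM222A (-0.989) and PTGES, a prostaglandin synthase (-0.986). The 6 libraries form 3 groups of the same line at similar depth, so each r describes these libraries only. Within the family r with BMF ran from -0.74 for BID to 0.71 for MCL1.

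Some of the 10 genes share sequence with neighbours. In GENCODE version 29, exons of BMF overlap those of the antisense gene BMF-AS1, exons of BCL2L1 those of ABALON, exons of BCL2L11 those of MIR4435-2HG and exons of BAD those of GPR137, each on the other strand. Reads of these pairs may not have been told apart, since the strand setting of the counting is not given in the sources used here. On the same strand, where no strand setting separates reads, exons of MCL1 overlap those of ADAMTSL4-AS1 and exons of BBC3 those of MIR3191. ADAMTSL4-AS1 had 0 to 4 counts per library and MIR3191 had 0. GPR137 had 732 to 1287 counts per library, highest in shEZH2 replicate 2 as was BAD.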

How the data were processed

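RNA of MDA-MB-231 cells was measured in 6 libraries made with a stranded poly(A) kit, per the labels' protocols. Whole-number counts, 1 column per library and 1 line per gene symbol, are what the authors deposited. Tools listed in the submitters' processing notes are GenomeStudio 2010.1, R 3.2.5 and STAR, with the build GRCh38. Which annotation and strand setting served the counting is not given in the sources used here. Groups came from sample titles. Of 29748 entries, 4 name no gene (16.5 to 21.0% of all counts) and were left out. Genes passing filterByExpr were tested in R 4.3.3 with edgeR 4.0.16: 1 quasi-likelihood fit (robust, TMM) of 3 groups with 3 residual degrees of freedom, Benjamini-Hochberg adjustment over all 14192 tested genes, called under 0.05. SE came from the log2 difference and its F statistic. Alternatives used DESeq2 1.42.0, limma 3.58.1, other filters and left-out libraries. An exact permutation test of 2 against 2 libraries cannot go below p = 0.333. The procedure was tested on simulated data with the same spread set for every gene and library. The real shEZH2 pair was more spread than the other pairs, so that simulation does not bear on the single calls here. The genes, lists and tests were chosen with earlier results of these data known. All 10 family genes are named. Of the other lists, called genes are named, or the most abundant per length where none was called, and the 5 genes most and 3 least like BMF by r. BAX, BAK1, BCL2L10, EPCAM and PECAM1 were named after their values were seen, and ERBB2, PGR and the levels of CD44 and VIM were added likewise. Lengths and positions are from GENCODE version 29 on GRCh38.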

Additional observations from a re-analysis of the deposited data

Results flagged for a closer look

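BMF differed between the lines in its response against control: it was 1.78 above control on the log2 scale in the shSUZ12 line and -1.05 from control in the shEZH2 line, and the test of the difference itself, 2.83, passed (edgeR adjusted p = 0.0154 with Benjamini-Hochberg adjustment). Both shSUZ12 libraries lay above both controls and both shEZH2 libraries below them. BNIP3L differed in the same test by 1.21 (edgeR adjusted p = 0.0434), with log2 differences from control of 0.18 in the shSUZ12 line and -1.03 in the shEZH2 line.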

How the results depend on the processing

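The 9 called differences of single genes (2 each for BMF, BIRC2 and BNIP3L, 1 each for BOK, CASP2 and MYC) kept their direction throughout. They lost the call in 35 of 54 fits that left out 1 library and in 8 of 72 other alternatives. The fits without a control or shSUZ12 library called fewer genes of any kind than the fit of all 6 libraries. BMF kept its direction in all 3 comparisons under all 14 alternatives. Leaving out 1 library moved its log2 difference between -1.29 and -0.80 in the shEZH2 line, 1.57 and 2.03 in the shSUZ12 line and 2.59 and 3.07 between the lines. With only the 2 groups compared, BMF between the lines was 2.82 with edgeR adjusted p = 0.0841.

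The number of the 10 family genes called, 0, 1 and 1 in the shEZH2 and shSUZ12 contrasts with control and between the lines, was 1, 1 and 2 by DESeq2 and with no filter on low counts, 2, 1 and 2 with the length trend removed, and 0, 3 and 0 with only the 2 groups compared. By limma with quality weights it was 3 in the shSUZ12 contrast. Leaving out 1 library it ran from 0 to 7, 0 to 3 and 0 to 7. For the other apoptosis genes (5, 1 and 1) the counts in the same order were 10, 2 and 4 by DESeq2, 13, 2 and 7 with the length trend removed and 1, 12 and 0 with only the 2 groups compared. They were 9 in the shSUZ12 contrast by limma and 3 between the lines with no filter. Leaving out 1 library they ran from 0 to 43, 0 to 13 and 0 to 41.

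Over all genes (957, 228 and 216) the counts were 1976, 527 and 1304 by DESeq2, 1471, 399 and 718 with no filter, 2309, 661 and 1256 with the length trend removed and 216, 2876 and 1 with only the 2 groups compared. They were 2953 in the shSUZ12 contrast by limma, and ran from 5 to 7853, 10 to 3044 and 0 to 7590 leaving out 1 library. The cause of these differences was not tested.

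The replicate numbers name no shared culture, and same-numbered libraries correlated at 0.110, 0.0700 and 0.231 in their deviations from group means. With the replicate number as a block the family counts stayed at 0, 1 and 1 with BMF as the gene called, other apoptosis genes between the lines became 2, and all genes called became 1233, 328 and 368.

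The direction turned only for genes that had not passed the test. With the length trend removed these were BCL2L11 (0.15), BAD (-0.11), BIK (-0.23) and MCL1 (0.11) in the shEZH2 contrast and BCL2L11 (-0.14) and BBC3 (0.060) between the lines. MCL1 in the shEZH2 contrast was 0.014 with DESeq2's size factors and by DESeq2, 0.0050 with at least 1 CPM in 2 libraries and 0.00099 with only the 2 groups compared. BCL2L11 in the shSUZ12 contrast was -0.0033 with no filter and -0.0017 with the replicate block. Leaving out 1 library, the ranges that crossed 0 in the shEZH2 contrast were -0.61 to 0.40 for BCL2L11, -0.29 to 0.77 for BAD, -0.49 to 0.74 for BIK and -0.29 to 0.26 for MCL1. In the shSUZ12 contrast they were -0.059 to 0.084 for BCL2L11, -0.15 to 0.30 for PMAIP1 and -0.24 to 0.0018 for BID. Between the lines they were -0.38 to 0.61 for BCL2L11, -0.54 to 0.15 for BBC3, -0.94 to 0.12 for BAD, -1.13 to 0.096 for BIK and -0.15 to 1.10 for BCL2. At 7 to 16 counts per library, depth limits what can be said of BIK.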
